A study of Mus musculus with 10 samples.

Results

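The genes described here are 44 regulators and effectors of the cell cycle, divided by the phase in which they are best known to act: 17 G1 regulators and inhibitors, 10 S phase replication genes and 17 G2/M genes. Every probe set whose symbol in the platform annotation was one of these genes was taken. There were 102 such probe sets among the 45101 on the array, for 43 of the 44 genes. Ccnb1 (cyclin B1) was not analysed here, because no probe set carried that symbol in the annotation used. Of the 43 genes, 42 had a main probe set that passed the filter on low signals, among 12207 named genes tested. The main probe set of a gene was the one with the highest mean signal. The gene that was not tested was Cdkn2a, with signals between 11.3 and 54.5 on the 10 arrays.

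The study set mouse embryonic stem cells (ESCs) beside 2 cell populations that arise when ESCs differentiate in hanging-drop embryoid bodies (EBs), namely in vitro primordial germ cells (iPGCs) and the somatic cells of the same EBs. There were 5 groups with 2 arrays each. The V6.5 line, of 129xBL6 F1 background, gave 3 groups: undifferentiated ESCs sorted as cKit+ SSEA+ at day 0, iPGCs sorted as cKit+ SSEA+ at day 6, and somatic cells sorted as cKit- SSEA- at day 6. The other 2 groups came from the Oct4-gfp line, of mixed background, which carries a Gfp reporter of Oct4: iPGCs sorted as cKit+ Oct4+ and somatic cells sorted as cKit- Oct4-, both at day 6. ESCs had been kept on inactivated fibroblast feeder cells, and the EBs were grown without LIF. Line and sorting marker change together, so they cannot be told apart, and ESC arrays came from V6.5 only. Nothing in the labels says that the 2 arrays of a group came from separate cultures, so that p-values measure the spread between these arrays, which may be technical.

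Cells enter the cycle through G1, where D-type cyclins with Cdk4 and Cdk6, and then cyclin E with Cdk2, phosphorylate the retinoblastoma protein and release E2F factors. CDK inhibitors such as p21 (Cdkn1a) and p27 (Cdkn1b) hold these kinases back. E2F factors switch on replication genes, among them the Mcm helicase, and later genes of G2 and mitosis are switched on through B-Myb (Mybl2) and its partners. Mouse ESCs are known for a short G1, high cyclin E and low D-type cyclins, and PGCs of the embryo are known to slow their cycle for a time during migration.

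Values are signal intensities on a linear scale, and differences are on the log2(signal + 14.8) scale. A gene was called higher or lower where the adjusted p of limma was below 0.05. In these bulk samples, a smaller share of cycling cells and less RNA per cycling cell cannot be told apart. The sorted populations carried the markers of their labels. The 11 pluripotent and germ cell markers summed to 33644 to 34584 in ESCs and 41499.6 to 43389 in iPGCs, against 1781 to 3259 in somatic cells. The 7 measured mesoderm and somatic markers summed to 137 to 252 in ESCs, 1493 to 2295 in iPGCs and 22288 to 24444 in somatic cells. Fibroblast markers (9 measured) summed to 1072 to 1165 in ESCs, 510.2 to 866 in iPGCs and 11548 to 18069.8 in somatic cells. Blood and endothelial markers (8 measured) summed to 648 to 695 in ESCs, 623 to 871 in iPGCs, 14659.8 to 18019.6 in V6.5 somatic cells and 4532 to 4948 in Oct4-Gfp somatic cells. The ratio of the 3' to the 5' Gapdh control probe set, a sign of RNA integrity and amplification, was 1.28 to 1.30 in ESCs, 1.51 to 1.63 in V6.5 iPGCs, 1.73 to 1.74 in V6.5 somatic cells, 2.02 to 2.37 in Oct4-Gfp iPGCs and 1.65 to 2.05 in Oct4-Gfp somatic cells. The part of these other cell types and of RNA quality in the differences below was not tested.

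The promoters of the phase groups held different motif letters. RefSeq start sites of GRCm38.p6 were available for 34 of the 44 genes, with 39 windows that reach from 250 bases before to 50 bases after a start. The genes without a window were Ccnd1, Ccnd2, Ccne2, Rb1, Myc, Mcm4, Ccna2, Cdc25c, Wee1 and Aurkb. An E2F site was searched as TTTCCCGC, TTTCGCGC, TTTGCCGC or TTTGGCGC, a cell cycle homology region (CHR) as TTTGAA or TTCGAA, and the box bound by NF-Y as CCAAT, all on both strands. E2F letters were in 6 of 10 windows of S phase genes, 4 of 16 of G1 genes and 1 of 13 of G2/M genes, against 2.26% of all 32851 windows. CHR letters were in 10 of 13 windows of G2/M genes, 2 of 10 of S phase genes and 1 of 16 of G1 genes, against 19.2% of all windows. Within the 250 bases before the start, the G2/M genes with CHR letters were Bub1b, Ccnb2, Cdc20, Cdk1, Mki67 and Top2a. The CHR letters of the other G2/M windows with a match reached past the start. A CHR and a CCAAT box stood together in 10 of 13 G2/M windows, against 7.52% of all windows, and in none of these windows did they overlap. These are matches of exact letters, and binding was not measured. A site that departs from the letters searched, such as another form of the E2F site, was not counted. No match, here or in the stretches below, does not mean that a site is absent.

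The upstream stretches of 250 bases are shown for 4 genes, in the direction of transcription, with the motif letters in capitals: Mcm5 for the overlapping E2F letters of a replication gene, Cdc20 for the CHR between CCAAT boxes of a mitotic gene, Aurka for CCAAT boxes with no CHR before the start, and Mybl2, the G2/M gene with the greatest difference between iPGCs and somatic cells, where none of the letters was found in this stretch.
Mcm5 (chr8:75109259-75109508, plus strand): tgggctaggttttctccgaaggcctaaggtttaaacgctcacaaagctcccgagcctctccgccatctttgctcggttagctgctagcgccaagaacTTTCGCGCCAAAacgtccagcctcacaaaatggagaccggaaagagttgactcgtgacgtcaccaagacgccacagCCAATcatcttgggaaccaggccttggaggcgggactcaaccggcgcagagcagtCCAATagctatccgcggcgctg
Cdc20 (chr4:118437344-118437593, minus strand): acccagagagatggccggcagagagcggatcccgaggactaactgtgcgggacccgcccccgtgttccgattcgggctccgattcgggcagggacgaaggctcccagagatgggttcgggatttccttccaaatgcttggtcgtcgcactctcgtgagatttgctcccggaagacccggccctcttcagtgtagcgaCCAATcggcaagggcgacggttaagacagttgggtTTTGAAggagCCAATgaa
Aurka (chr2:172370571-172370820, minus strand): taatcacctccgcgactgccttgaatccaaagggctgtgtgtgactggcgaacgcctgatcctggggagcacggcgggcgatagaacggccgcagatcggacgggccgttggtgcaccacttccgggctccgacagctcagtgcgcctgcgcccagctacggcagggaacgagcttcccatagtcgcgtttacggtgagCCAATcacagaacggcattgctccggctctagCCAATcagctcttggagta
Mybl2 (chr2:163054385-163054634, plus strand): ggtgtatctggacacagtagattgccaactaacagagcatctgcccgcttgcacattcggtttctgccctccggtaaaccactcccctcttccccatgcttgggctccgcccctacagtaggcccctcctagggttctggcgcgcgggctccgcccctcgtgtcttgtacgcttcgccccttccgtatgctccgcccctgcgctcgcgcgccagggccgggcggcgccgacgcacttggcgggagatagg

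Across the phases, the medians of S phase and G2/M genes were highest in ESCs, lower in V6.5 iPGCs and lowest in V6.5 somatic cells, while G1 regulators split into genes that were higher and genes that were lower. Over the 16 tested G2/M genes the median log2 difference was -0.23 between V6.5 iPGCs and ESCs and -0.57 between V6.5 somatic cells and ESCs. Over the 10 S phase genes these medians were -0.16 and -0.37, and over the 16 tested G1 genes -0.34 and 0.08. The medians over all probe sets tested were 0.07 and 0.04. The S phase median of iPGCs against ESCs was 0.02 after quantile normalization, and the G1 median of somatic cells against ESCs was -0.10 after median centring. On both V6.5 iPGC arrays the signal lay between those of all ESC and all V6.5 somatic arrays, falling from ESCs to somatic cells, for 9 of 16 G2/M genes, 5 of 10 S phase genes and 2 of 16 G1 genes. Such an order was seen for 12.7% of all probe sets tested.

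**Figure D1:**
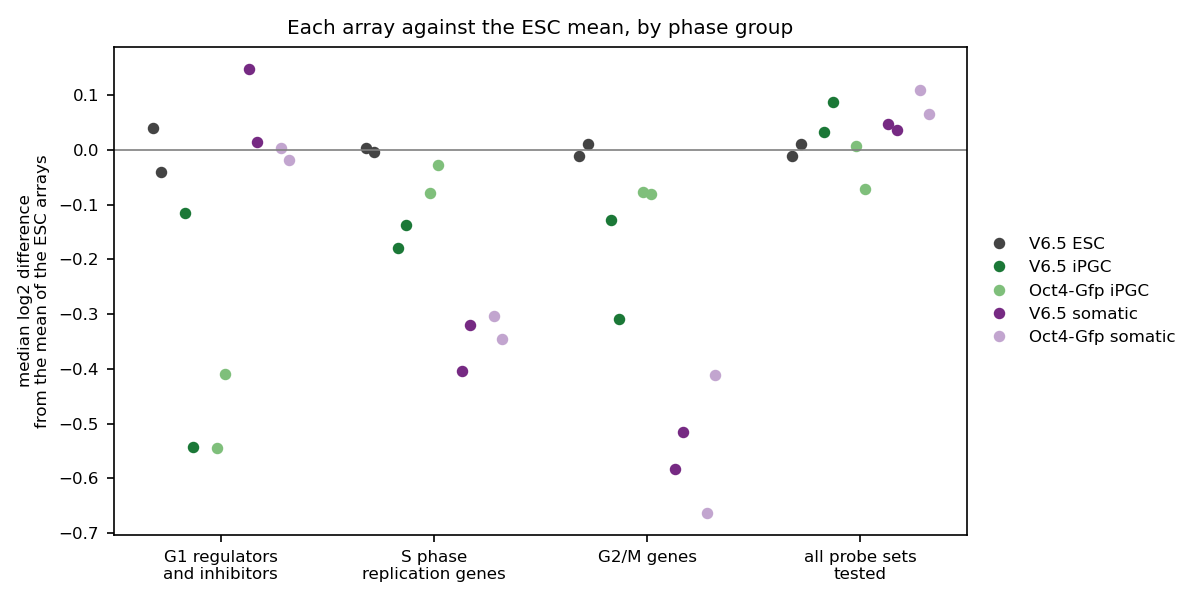
Median over the tested genes of each phase group of the log2 signal minus the gene's mean over the 2 ESC arrays, 1 point per array, with the same for all probe sets tested at the right. Somatic arrays lie between -0.30 and -0.40 for S phase genes and between -0.41 and -0.66 for G2/M genes, below every iPGC array of both lines, whereas for G1 genes the iPGC arrays lie lowest, from -0.11 to -0.54.

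In V6.5 iPGCs against V6.5 ESCs, 9 of the 42 tested genes passed the test, 2 higher and 7 lower, beside 27.2% of all probe sets tested in either direction (15.6% higher and 11.7% lower). None of the 10 S phase genes was called, and 1 of those, Mcm2, had an unadjusted p below 0.05, as did 41.3% of all probe sets. In V6.5 somatic cells against ESCs, 28 genes passed, 6 higher and 22 lower, beside 57.2% of all probe sets (30.1% higher and 27.2% lower). All 6 that were higher were G1 regulators, while 6 G1 regulators, 6 S phase genes and 10 G2/M genes were lower. With the arrays centred on their medians instead, the somatic split was 5 higher and 29 lower, and the median of all probe sets moved from 0.04 to -0.15. Calls over all probe sets went from 15093 to 15356. With either ESC array left out, 1 ESC array remained, and most of the calls between iPGCs and ESCs and part of the somatic calls were lost. Fewer of all probe sets were called as well.

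**Figure D2:**
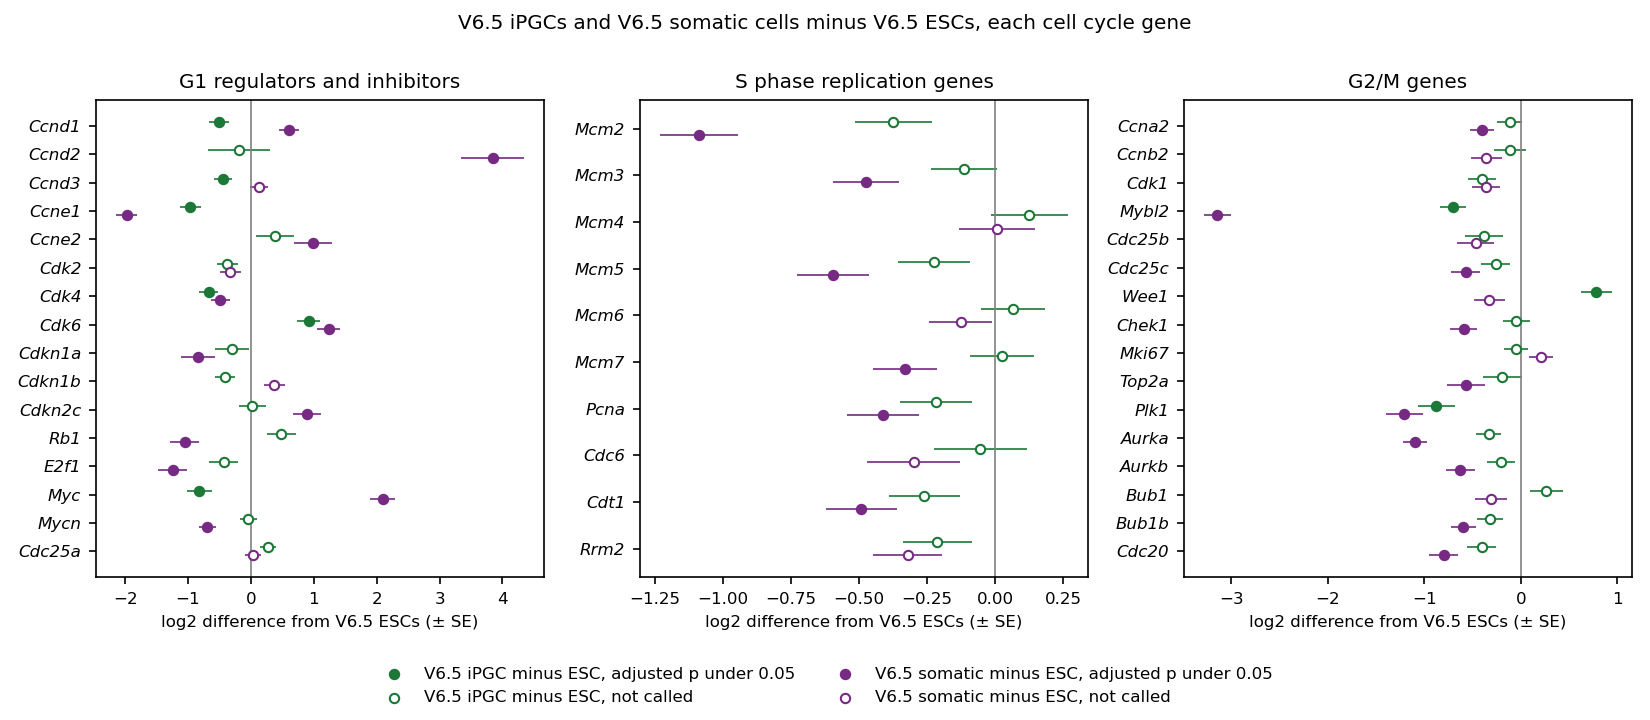
Log2 difference (± SE of the limma fit) from V6.5 ESCs of V6.5 iPGCs (green) and V6.5 somatic cells (purple) for each tested gene, by phase group, with filled points at an adjusted p below 0.05. The somatic points of Mybl2 (-3.14) and Ccne1 (-1.97) lie farthest to the left and those of Ccnd2 (3.84) and Myc (2.10) farthest to the right. The horizontal scale differs between the panels.

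In V6.5 iPGCs against V6.5 somatic cells, 19 of 42 genes passed, 13 higher and 6 lower in iPGCs, beside 45.5% of all probe sets (22.2% higher and 23.2% lower). In the Oct4-Gfp line, which shares no array with the first comparison, 19 passed as well, 13 higher and 6 lower, beside 47.0% of all probe sets (19.4% higher and 27.6% lower). In both lines the lower genes were all G1 regulators, 6 of 16 in each. Of the S phase genes 3 of 10 were higher in V6.5 and 1 of 10 in Oct4-Gfp, and of the G2/M genes 6 of 16 and 8 of 16. In both lines, 10 genes were called higher (Ccne1, Rb1, Mycn, Mcm2, Mybl2, Wee1, Chek1, Aurka, Aurkb and Bub1), and 5 were called lower in both (Ccnd1, Ccnd2, Ccnd3, Cdkn1b and Myc), with none called in opposite directions. Among all probe sets tested 16.1% were called higher and 19.8% lower in both. Over both lines together, 20 genes were higher and 9 lower, beside 58.4% of all probe sets (26.9% higher and 31.4% lower). Median centring gave 29 higher and 5 lower in the Oct4-Gfp line and 29 and 6 over both lines, with the median of all probe sets moving from -0.11 to 0.15 and from -0.03 to 0.15. Calls over all probe sets went from 12403 to 13333 and from 15386 to 16263. Without V6.5 somatic replicate 1, fewer of the genes were called in V6.5, and fewer of all probe sets as well.

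At a stricter threshold, a change of at least 3-fold with an unadjusted p below 0.01, few of these genes remained. V6.5 iPGCs against ESCs had none, beside 3.38% of all probe sets. V6.5 somatic cells against ESCs had 4 beside 17.4%, namely Ccnd2 and Myc, higher, and Ccne1 and Mybl2, lower. Between iPGCs and somatic cells Mybl2 was higher and Ccnd2 and Myc were lower in V6.5, in Oct4-Gfp and over both lines, 3 genes in each comparison, beside 13.8%, 14.0% and 13.5% of all probe sets.

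**Figure D3:**
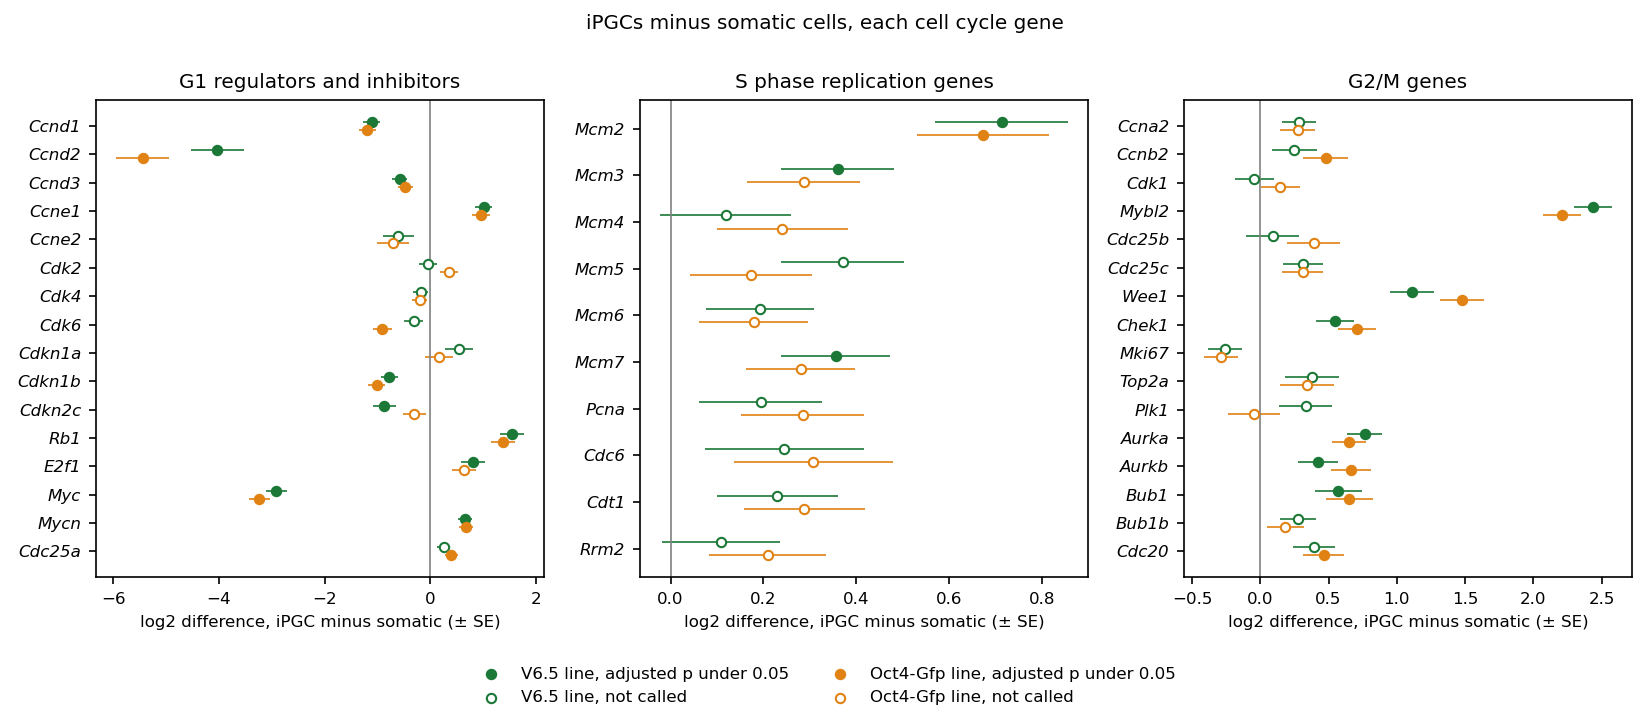
Log2 difference (± SE of the limma fit) of iPGCs minus somatic cells in the V6.5 line (green) and the Oct4-Gfp line (orange) for each tested gene, by phase group, with filled points at an adjusted p below 0.05. All 10 S phase genes lie to the right of zero in both lines, Mybl2 (2.44 and 2.21) lies farthest to the right, and Ccnd2 (-4.03 and -5.45) and Myc (-2.92 and -3.24) farthest to the left. The horizontal scale differs between the panels.

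The D-type cyclins, which carry growth signals to Cdk4 and Cdk6, were all lower in iPGCs than in somatic cells. Ccnd2 had signals of 233 and 169 in ESCs, 333 and 85.8 in the iPGCs and 3510.0 and 2638 in the somatic cells of V6.5, and 62.3 and 66.9 in the iPGCs and 3918 and 3022 in the somatic cells of Oct4-Gfp. All 4 somatic arrays were far above the 6 others, and the 2 V6.5 iPGC arrays lay on either side of both ESC arrays, farther from each other than from either ESC array. The difference was -4.03 ± 0.50 (SE, adjusted p = 0.000385) in V6.5 and -5.45 ± 0.50 (SE, adjusted p = 8.65e-05) in Oct4-Gfp, and V6.5 somatic cells exceeded ESCs by 3.84 ± 0.50 (SE, adjusted p = 0.000364). All 7 probe sets of Ccnd2 were tested, with differences from -4.97 to -3.53 between V6.5 iPGCs and somatic cells. In ESCs the Ccnd1 signals were 1969 and 1789.5, in iPGCs 1434 and 1213 (V6.5) with 1382 and 1505 (Oct4-Gfp), and in somatic cells 2716 and 3033 (V6.5) with 3672 and 3003 (Oct4-Gfp). Somatic cells had the highest Ccnd1 and iPGCs the lowest, with ESCs between them and no overlap, and iPGCs differed from somatic cells by -1.11 ± 0.16 (SE, adjusted p = 0.000829) in V6.5 and -1.19 ± 0.16 (SE, adjusted p = 0.000592) in Oct4-Gfp. V6.5 somatic cells exceeded ESCs by 0.61 ± 0.16 (SE, adjusted p = 0.0119), but a dimmer Ccnd1 probe set gave -0.57, and the call was lost with the mean of the 3 probe sets, with median centring, and without ESC replicate 2 or V6.5 somatic replicate 2. The signals of Ccnd3 were 2472 and 2301 in ESCs, against 1747 and 1746 in V6.5 and 1512 and 1681 in Oct4-Gfp iPGCs and 2846 and 2408 in V6.5 and 2333 and 2114 in Oct4-Gfp somatic cells. Cyclin D3 differed less, by -0.58 ± 0.14 (SE, adjusted p = 0.0109) and -0.47 ± 0.14 (SE, adjusted p = 0.0249). Between V6.5 iPGCs and ESCs, Ccnd1 differed by -0.50 ± 0.16 (SE, adjusted p = 0.0495) and Ccnd3 by -0.45 ± 0.14 (SE, adjusted p = 0.0494). These 2 calls were lost in 14 and 16 of 22 alternative settings, the Ccnd3 call between V6.5 iPGCs and somatic cells was lost without V6.5 somatic replicate 1, and that in Oct4-Gfp was lost in 6 of 20.

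Cdk4 and Cdk6, the kinase partners of D-type cyclins, moved apart. Cdk4 had signals of 6095 and 6392 in ESCs, 3805 and 4017 in the iPGCs and 4078 and 4856 in the somatic cells of V6.5, and 3546 and 3645 in the iPGCs and 4539 and 3791 in the somatic cells of Oct4-Gfp. ESCs had the highest Cdk4 on both arrays, and V6.5 iPGCs differed from them by -0.67 ± 0.15 (SE, adjusted p = 0.0143) and V6.5 somatic cells by -0.49 ± 0.15 (SE, adjusted p = 0.0224), and both calls were lost without either ESC array. The first was also lost without V6.5 iPGC replicate 1, and the second without V6.5 somatic replicate 1, with quantile normalization and with no filter. In ESCs the Cdk6 signals were 156 and 166, in iPGCs 323 and 309.8 (V6.5) with 379.6 and 310.3 (Oct4-Gfp), and in somatic cells 425 and 373 (V6.5) with 559.6 and 774 (Oct4-Gfp). Here ESCs were the lowest, and V6.5 iPGCs exceeded them by 0.92 ± 0.18 (SE, adjusted p = 0.0103) and V6.5 somatic cells by 1.24 ± 0.18 (SE, adjusted p = 0.000742). In the Oct4-Gfp line iPGCs minus somatic cells was -0.91 ± 0.18 (SE, adjusted p = 0.0045), while the V6.5 difference of -0.32 ± 0.18 did not pass. The call of Cdk6 between iPGCs and ESCs was lost without ESC replicate 1 and with the mean of its probe sets. A weaker Cdk6 probe set had the other sign between V6.5 somatic cells and ESCs (-0.36, against 1.24 for the main one).

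The E cyclins, the partners of Cdk2 at the entry to S phase, did not move together. The signals of Ccne1 were 4618 and 3954 in ESCs, against 1926 and 2465 in V6.5 and 2619 and 2285 in Oct4-Gfp iPGCs and 1024 and 1134 in V6.5 and 1271 and 1233 in Oct4-Gfp somatic cells. The 3 populations separated without overlap, in the order ESCs, iPGCs, somatic cells. V6.5 iPGCs differed from ESCs by -0.97 ± 0.17 (SE, adjusted p = 0.00587), V6.5 somatic cells by -1.97 ± 0.17 (SE, adjusted p = 4.25e-05), and iPGCs exceeded somatic cells by 1.01 ± 0.17 (SE, adjusted p = 0.00175) in V6.5 and 0.96 ± 0.17 (SE, adjusted p = 0.00222) in Oct4-Gfp. Ccne2 had signals of 447 and 328 in ESCs, 426 and 600.3 in the iPGCs and 726 and 832 in the somatic cells of V6.5, and 638 and 339.8 in the iPGCs and 785 and 754 in the somatic cells of Oct4-Gfp. Somatic cells had the highest Ccne2, above ESCs by 0.99 ± 0.30 (SE, adjusted p = 0.0224), and the iPGC arrays were scattered across the range from the ESC level upward. The somatic call was lost without ESC replicate 2 and without either V6.5 somatic array. The difference of iPGCs from somatic cells passed over both lines together (-0.65 ± 0.21, SE, adjusted p = 0.0288) and in neither line alone (-0.60 ± 0.30 and -0.70 ± 0.30). The call over both lines was lost without any one of 6 arrays of the comparison, and also with quantile normalization and with median centring. Cdc25a, the phosphatase that activates Cdk2, was higher in Oct4-Gfp iPGCs than in Oct4-Gfp somatic cells by 0.40 ± 0.13 (SE, adjusted p = 0.034), a call lost in 12 of 20 alternative settings.

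The CDK inhibitors had no common direction. In ESCs the Cdkn1a signals were 3232 and 3459, in iPGCs 3212 and 2269.9 (V6.5) with 1872 and 1552 (Oct4-Gfp), and in somatic cells 1597 and 2147 (V6.5) with 1916 and 1206 (Oct4-Gfp). p21 was highest in ESCs and fell in V6.5 somatic cells by 0.85 ± 0.27 (SE, adjusted p = 0.0272), and the V6.5 iPGC arrays reached from near the ESC level downward. The call was lost without either ESC array and without V6.5 somatic replicate 1. Differences between iPGCs and somatic cells were 0.54 ± 0.27 in V6.5 and 0.16 ± 0.27 in Oct4-Gfp, and neither passed. The signals of Cdkn1b were 896 and 767 in ESCs, against 702 and 550.1 in V6.5 and 472 and 537 in Oct4-Gfp iPGCs and 1114 and 1044 in V6.5 and 1030.0 and 1033 in Oct4-Gfp somatic cells. p27 was lowest in iPGCs on all 4 arrays, and its difference from somatic cells was -0.78 ± 0.16 (SE, adjusted p = 0.00515) in V6.5 and -1.01 ± 0.16 (SE, adjusted p = 0.00141) in Oct4-Gfp. Cdkn2c had signals of 93.9 and 89.7 in ESCs, 85 and 103 in the iPGCs and 191 and 177 in the somatic cells of V6.5, and 110.5 and 114 in the iPGCs and 108 and 185 in the somatic cells of Oct4-Gfp. p18 was low on every array, and V6.5 somatic cells exceeded ESCs by 0.90 ± 0.22 (SE, adjusted p = 0.00898), with V6.5 iPGCs minus somatic cells at -0.87 ± 0.22 (SE, adjusted p = 0.013). Both calls were lost without V6.5 somatic replicate 1, and the second also without V6.5 iPGC replicate 1. One Oct4-Gfp somatic array was at the iPGC level, and the Oct4-Gfp difference of -0.30 ± 0.22 did not pass. Cdkn2a, which encodes p16 and p19Arf, was not tested in the main setting, and its signals were 41.2 and 51 in ESCs and 19.8 and 12.2 in V6.5 somatic cells. With no filter on low signals it was called between these groups, in V6.5 iPGCs against somatic cells and over both lines together. The 95th percentile of 44 olfactory receptor probe sets, taken as background, was 12.6 to 25.4 on the 10 arrays, and Cdkn2a lay within it on 2 of them.

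Of 4 other CDK inhibitor genes, all passed in V6.5 somatic cells against ESCs (2 higher, 2 lower) beside 57.2% of all probe sets, and 3 passed between iPGCs and somatic cells in each line (1 higher, 2 lower in iPGCs) beside 45.5% and 47.0%. In ESCs the Cdkn1c signals were 497 and 490.3, in iPGCs 542 and 413 (V6.5) with 319.8 and 333 (Oct4-Gfp), and in somatic cells 4049.6 and 4988 (V6.5) with 3112 and 3058 (Oct4-Gfp). Cdkn1c encodes p57, and its iPGC signals stayed near the ESC level while somatic cells were higher, so that iPGCs minus somatic cells was -3.21 ± 0.17 (SE, adjusted p = 7.15e-06) in V6.5 and -3.18 ± 0.17 (SE, adjusted p = 8.04e-06) in Oct4-Gfp. The signals of Cdkn2b were 72.1 and 98.5 in ESCs, against 139 and 209 in V6.5 and 243 and 248 in Oct4-Gfp iPGCs and 35 and 45.4 in V6.5 and 76.6 and 60.9 in Oct4-Gfp somatic cells. Cdkn2b encodes p15 and exceeded the ESC level by 0.90 ± 0.22 (SE, adjusted p = 0.022) in V6.5 iPGCs, and iPGCs exceeded somatic cells by 1.76 ± 0.22 (SE, adjusted p = 0.000452) in V6.5 and 1.65 ± 0.22 (SE, adjusted p = 0.000651) in Oct4-Gfp. Cdkn3, a phosphatase of CDKs, was lower in iPGCs than in somatic cells, with differences of -0.53 ± 0.14 (SE, adjusted p = 0.0168) in V6.5 and -0.56 ± 0.14 (SE, adjusted p = 0.0135) in Oct4-Gfp.

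Rb1 and E2f1, the pocket protein and the activating factor that it binds, were both lower in somatic cells. Rb1 had signals of 355 and 338 in ESCs, 604 and 398 in the iPGCs and 171 and 148 in the somatic cells of V6.5, and 544 and 737 in the iPGCs and 217 and 254 in the somatic cells of Oct4-Gfp. All 4 iPGC arrays exceeded both ESC arrays, but V6.5 iPGCs minus ESCs was 0.49 ± 0.23 and did not pass. iPGCs minus somatic cells was 1.54 ± 0.23 (SE, adjusted p = 0.000962) in V6.5 and 1.37 ± 0.23 (SE, adjusted p = 0.00172) in Oct4-Gfp, and V6.5 somatic cells minus ESCs was -1.05 ± 0.23 (SE, adjusted p = 0.00484). In ESCs the E2f1 signals were 1649 and 2127, in iPGCs 1704 and 1129.8 (V6.5) with 1152 and 888 (Oct4-Gfp), and in somatic cells 804 and 767 (V6.5) with 681 and 612 (Oct4-Gfp). E2f1 was highest in ESCs, with 1 V6.5 iPGC array within the ESC range. V6.5 somatic cells minus ESCs was -1.24 ± 0.23 (SE, adjusted p = 0.00239) and V6.5 iPGCs minus somatic cells 0.81 ± 0.23 (SE, adjusted p = 0.0216), whereas the Oct4-Gfp difference of 0.63 ± 0.23 did not pass (adjusted p = 0.0529). The V6.5 call against somatic cells was lost without V6.5 iPGC replicate 1 and without either V6.5 somatic array. Of 15 tested genes of the other pocket proteins, E2F factors and partners, 5 were called higher and 1 lower in V6.5 iPGCs against ESCs, beside 27.2% of all probe sets in either direction. The calls were 4 and 3 in V6.5 somatic cells against ESCs, 3 and 2 in V6.5 iPGCs against somatic cells, and 4 and 0 in Oct4-Gfp, all fewer than the 57.2%, 45.5% and 47.0% of all probe sets. Among these, E2f4, a repressive E2F, was lower than in ESCs, with a difference of -1.20 ± 0.17 (SE, adjusted p = 0.00301) for V6.5 iPGCs and -1.51 ± 0.17 (SE, adjusted p = 0.000187) in V6.5 somatic cells, and E2f3, an activating E2F, was higher by 0.82 ± 0.14 (SE, adjusted p = 0.00652) and 1.28 ± 0.14 (SE, adjusted p = 0.000185). E2f2 was higher in iPGCs than in somatic cells by 0.99 ± 0.19 (SE, adjusted p = 0.00339) in V6.5 and 0.93 ± 0.19 (SE, adjusted p = 0.00434) in Oct4-Gfp, and Lin9, a partner of B-Myb, by 0.77 ± 0.18 (SE, adjusted p = 0.0095) and 0.88 ± 0.18 (SE, adjusted p = 0.00499).

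The 2 Myc genes, transcription factors of growth and proliferation, took opposite directions. The signals of Myc were 432 and 339 in ESCs, against 185 and 238 in V6.5 and 173 and 232 in Oct4-Gfp iPGCs and 1653 and 1717 in V6.5 and 2170.1 and 1872 in Oct4-Gfp somatic cells. Every somatic array was above every other array, and iPGCs were below ESCs, with a difference of -0.82 ± 0.20 (SE, adjusted p = 0.0206) in V6.5. iPGCs minus somatic cells was -2.92 ± 0.20 (SE, adjusted p = 2.25e-05) in V6.5 and -3.24 ± 0.20 (SE, adjusted p = 1.5e-05) in Oct4-Gfp, and V6.5 somatic cells minus ESCs 2.10 ± 0.20 (SE, adjusted p = 7.6e-05). Mycn had signals of 5602 and 5262 in ESCs, 5362 and 5188 in the iPGCs and 3119 and 3608 in the somatic cells of V6.5, and 5531 and 6120.1 in the iPGCs and 3691 and 3608 in the somatic cells of Oct4-Gfp. Mycn in iPGCs overlapped with ESCs (-0.04 ± 0.13) and exceeded somatic cells by 0.65 ± 0.13 (SE, adjusted p = 0.00492) in V6.5 and 0.67 ± 0.13 (SE, adjusted p = 0.00415) in Oct4-Gfp. Without ESC replicate 1 the Myc call between iPGCs and ESCs was lost, as it was without V6.5 iPGC replicate 1.

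**Figure D4:**
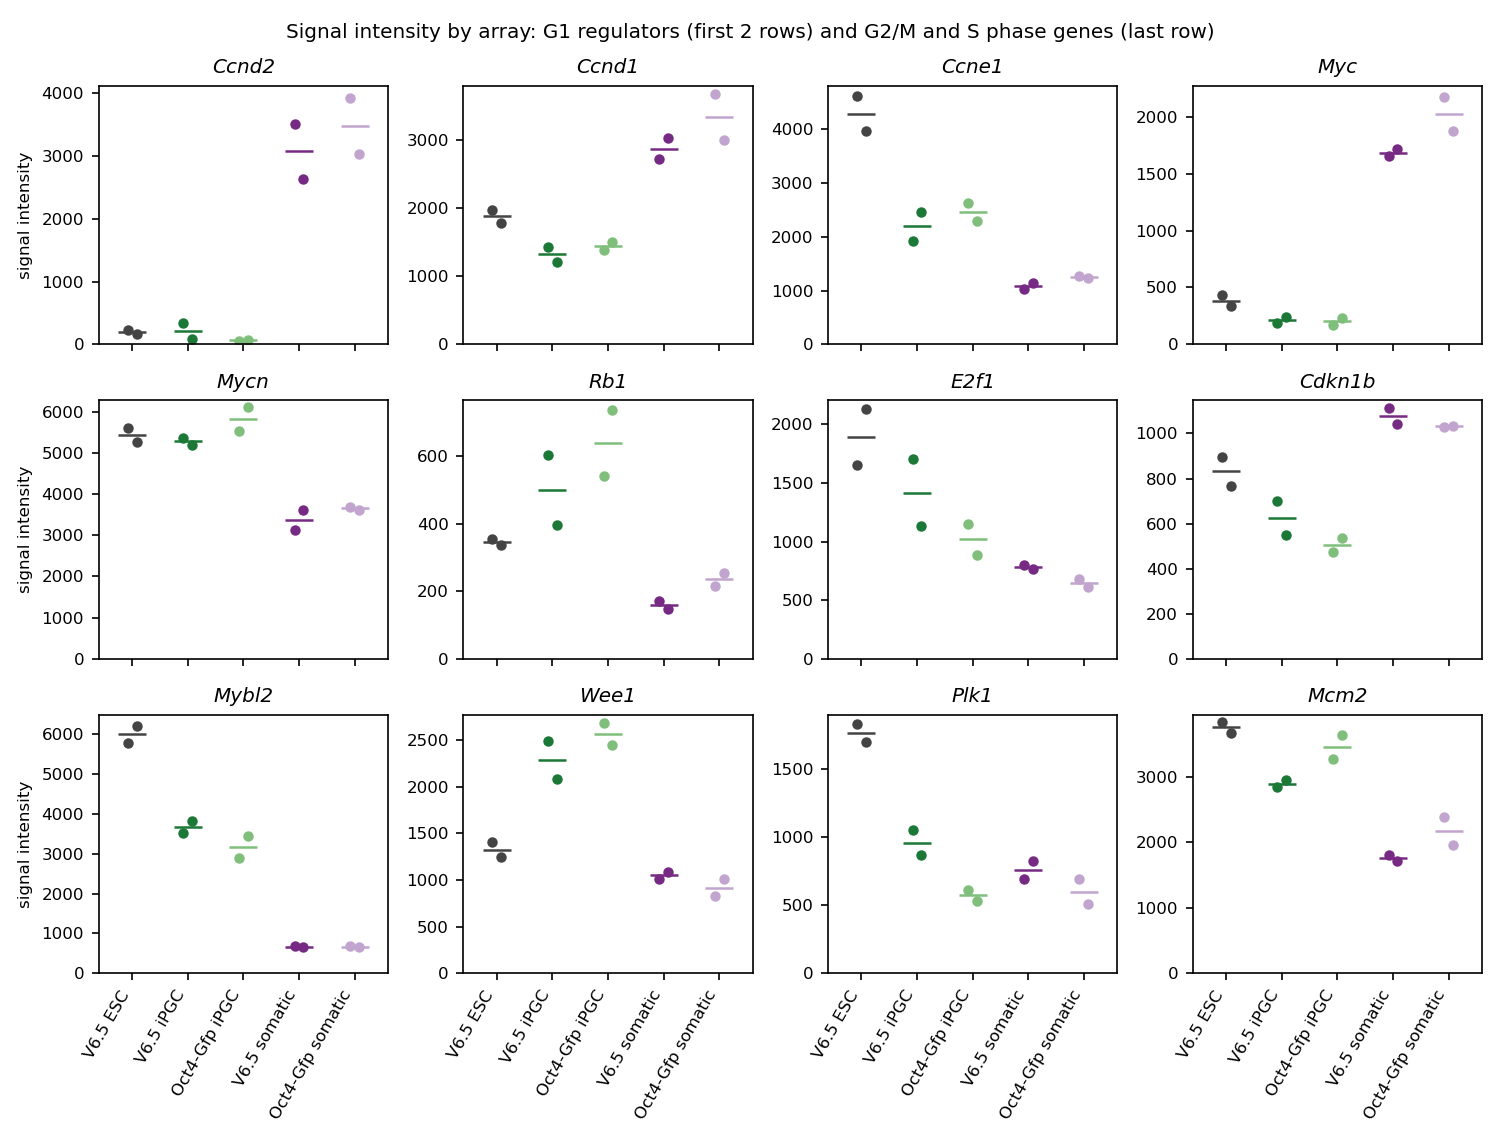
Signal intensity (linear scale from 0, arbitrary units) on each of the 10 arrays for 12 of the genes, with 2 points per group and a line at their mean. Ccnd2 and Myc are high in the 4 somatic arrays alone, Mybl2 and Ccne1 descend from ESCs to iPGCs to somatic cells, and Wee1 and Rb1 are highest in iPGCs.

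Between iPGCs and somatic cells, 3 of the 10 S phase genes passed in V6.5 (Mcm2, Mcm3 and Mcm7) and 1 in Oct4-Gfp (Mcm2). All were higher in iPGCs, by less than a log2 value of 1. Of all probe sets tested, 22.2% were called higher in V6.5 and 19.4% in Oct4-Gfp. In ESCs the Mcm2 signals were 3841 and 3669, in iPGCs 2839.9 and 2946 (V6.5) with 3275 and 3632 (Oct4-Gfp), and in somatic cells 1806 and 1712 (V6.5) with 2387 and 1951 (Oct4-Gfp). Mcm2, a subunit of the replicative helicase, was the S phase gene with the greatest difference, 0.71 ± 0.14 (SE, adjusted p = 0.00443) between V6.5 iPGCs and somatic cells, 0.67 ± 0.14 (SE, adjusted p = 0.00575) in Oct4-Gfp and -1.09 ± 0.14 (SE, adjusted p = 0.000387) between V6.5 somatic cells and ESCs. The 3 populations did not overlap. The signals of Mcm3 were 7441 and 7458 in ESCs, against 7058 and 6698 in V6.5 and 6747 and 7415 in Oct4-Gfp iPGCs and 5469 and 5243 in V6.5 and 5687 and 5907 in Oct4-Gfp somatic cells. For Mcm3, another helicase subunit, V6.5 somatic cells minus ESCs was -0.48 ± 0.12 (SE, adjusted p = 0.0108) and V6.5 iPGCs minus somatic cells 0.36 ± 0.12 (SE, adjusted p = 0.0418). Every somatic array was below every iPGC and ESC array, for Mcm3 as for Mcm5. Mcm5 had signals of 8268 and 8154 in ESCs, 6562 and 7519.7 in the iPGCs and 5153 and 5722 in the somatic cells of V6.5, and 7295 and 6767 in the iPGCs and 6247 and 6209.9 in the somatic cells of Oct4-Gfp. For Mcm5, whose promoter is shown above, V6.5 somatic cells minus ESCs was -0.60 ± 0.13 (SE, adjusted p = 0.00557), and iPGCs minus somatic cells was 0.37 ± 0.13 in V6.5 and 0.17 ± 0.13 in Oct4-Gfp, neither of which passed. Mcm7 was called in V6.5 iPGCs against somatic cells (0.36 ± 0.12, SE, adjusted p = 0.0384) and in V6.5 somatic cells against ESCs (-0.33 ± 0.12, SE, adjusted p = 0.0412), the latter lost in 12 of 22 alternative settings. Cdt1, the factor that loads the helicase, was called in V6.5 somatic cells against ESCs (-0.49 ± 0.13, SE, adjusted p = 0.0127). The somatic calls of Mcm3 and Cdt1 against ESCs were lost with quantile normalization and without ESC replicate 2 or V6.5 somatic replicate 2.

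All 10 S phase genes had a positive difference between iPGCs and somatic cells in both lines, called or not, from 0.11 to 0.71 in V6.5 and from 0.17 to 0.67 in Oct4-Gfp, with medians of 0.24 and 0.28 beside 0.05 and -0.11 over all probe sets. The remaining S phase genes, Mcm4, Mcm6, Pcna, Cdc6 and Rrm2, were called in neither line. Over both lines together 5 of the 10 were called higher (Mcm2, Mcm3, Mcm5, Mcm7 and Cdt1) and none lower. Of all probe sets, 26.9% were called higher and 58.4% in either direction. The calls of Mcm5 and Cdt1 were lost in 13 and 13 of 20 alternative settings. Several of these calls were near the threshold: those of Mcm3 and Mcm7 in V6.5 were lost in 14 and 13 of 21 alternative settings, whereas that of Mcm2 was lost only at the 3-fold threshold.

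Among 34 other genes of origins and replication forks, V6.5 somatic cells against ESCs had 1 higher and 14 lower, beside 30.1% and 27.2% of all probe sets. V6.5 iPGCs against somatic cells had 15 higher and 1 lower beside 22.2% and 23.2%, and the Oct4-Gfp line 18 higher and 2 lower beside 19.4% and 27.6%. Against ESCs, V6.5 iPGCs had 2 higher and 3 lower beside 15.6% and 11.7%. The median log2 differences of the list in these 4 comparisons were -0.31, 0.35, 0.54 and 0.03, beside 0.04, 0.05, -0.11 and 0.07 over all probe sets. Orc1, the largest subunit of the origin recognition complex, had signals of 2055 and 2148 in ESCs, 1764 and 1621 in V6.5 iPGCs and 733 and 758 in V6.5 somatic cells, with iPGCs minus somatic cells at 1.17 ± 0.13 (SE, adjusted p = 0.000213) in V6.5 and 1.24 ± 0.13 (SE, adjusted p = 0.000165) in Oct4-Gfp. Rfc5, a subunit of the clamp loader, differed by 1.40 ± 0.13 (SE, adjusted p = 9.29e-05) and 1.19 ± 0.13 (SE, adjusted p = 0.000219). Gins2, a helicase cofactor, went the other way in both lines, by -0.81 ± 0.14 (SE, adjusted p = 0.00198) and -1.13 ± 0.14 (SE, adjusted p = 0.000374), and Cdc7, the kinase that fires origins, was higher in V6.5 iPGCs than in ESCs by 0.97 ± 0.18 (SE, adjusted p = 0.00796).

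Mybl2 had the greatest difference of the G2/M genes in each comparison between iPGCs, somatic cells and V6.5 ESCs except that of V6.5 iPGCs with ESCs. It encodes B-Myb, which drives the transcription of mitotic genes. In ESCs the Mybl2 signals were 5776 and 6205, in iPGCs 3521 and 3817 (V6.5) with 2893 and 3433 (Oct4-Gfp), and in somatic cells 677 and 654 (V6.5) with 692 and 647 (Oct4-Gfp). The 3 populations did not overlap, and the somatic signal was low on all 4 arrays. V6.5 iPGCs minus ESCs was -0.71 ± 0.14 (SE, adjusted p = 0.00927), V6.5 somatic cells minus ESCs -3.14 ± 0.14 (SE, adjusted p = 2.31e-06), and iPGCs minus somatic cells 2.44 ± 0.14 (SE, adjusted p = 9.95e-06) in V6.5 and 2.21 ± 0.14 (SE, adjusted p = 1.56e-05) in Oct4-Gfp. The second probe set of Mybl2 gave -2.29 between V6.5 somatic cells and ESCs. Without ESC replicate 2 the call between iPGCs and ESCs was lost.

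Wee1, the kinase that holds Cdk1 inactive before mitosis, was higher in iPGCs than in both other populations. The signals of Wee1 were 1403 and 1243 in ESCs, against 2488 and 2083 in V6.5 and 2678 and 2450.2 in Oct4-Gfp iPGCs and 1009 and 1088 in V6.5 and 824 and 1009 in Oct4-Gfp somatic cells. All 4 iPGC arrays exceeded all others. V6.5 iPGCs minus ESCs was 0.78 ± 0.16 (SE, adjusted p = 0.0115), and iPGCs minus somatic cells 1.11 ± 0.16 (SE, adjusted p = 0.000878) in V6.5 and 1.48 ± 0.16 (SE, adjusted p = 0.000212) in Oct4-Gfp. The call against ESCs was lost without ESC replicate 2 and without V6.5 iPGC replicate 1. Chek1 had signals of 3279 and 2770.4 in ESCs, 3059.5 and 2771 in the iPGCs and 1986 and 1997 in the somatic cells of V6.5, and 3765 and 4016 in the iPGCs and 2492 and 2256 in the somatic cells of Oct4-Gfp. Chek1, a checkpoint kinase of the replication response, overlapped between V6.5 iPGCs and ESCs, and iPGCs exceeded somatic cells by 0.54 ± 0.14 (SE, adjusted p = 0.0141) in V6.5 and 0.71 ± 0.14 (SE, adjusted p = 0.00408) in Oct4-Gfp. The V6.5 call of Chek1 was lost without V6.5 iPGC replicate 1 and without either V6.5 somatic array.

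Plk1, a kinase of mitotic entry, was highest in ESCs. In ESCs the Plk1 signals were 1834 and 1699, in iPGCs 1053 and 867 (V6.5) with 616 and 535 (Oct4-Gfp), and in somatic cells 690.0 and 828 (V6.5) with 695 and 506 (Oct4-Gfp). V6.5 iPGCs minus ESCs was -0.88 ± 0.19 (SE, adjusted p = 0.0148) and V6.5 somatic cells minus ESCs -1.21 ± 0.19 (SE, adjusted p = 0.00111), while iPGCs and somatic cells differed by 0.33 ± 0.19 in V6.5 and -0.05 ± 0.19 in Oct4-Gfp, neither of which passed. The call between iPGCs and ESCs was lost without either ESC array and without V6.5 iPGC replicate 2.

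Among the kinases and checkpoint proteins of the mitotic spindle, Aurka, Aurkb and Cdc20 followed the order of Mybl2 in V6.5 over a smaller range. The main probe set of Bub1 was highest in iPGCs. The signals of Aurka were 3090.3 and 3265 in ESCs, against 2426 and 2613 in V6.5 and 2042 and 2172 in Oct4-Gfp iPGCs and 1406 and 1551 in V6.5 and 1299.9 and 1376 in Oct4-Gfp somatic cells. For Aurka, the centrosomal Aurora kinase, iPGCs minus somatic cells was 0.76 ± 0.13 (SE, adjusted p = 0.00177) in V6.5 and 0.65 ± 0.13 (SE, adjusted p = 0.00391) in Oct4-Gfp, and V6.5 somatic cells minus ESCs was -1.10 ± 0.13 (SE, adjusted p = 0.000201). The ESC, iPGC and somatic arrays did not overlap. Aurkb had signals of 2509.8 and 2557 in ESCs, 2349 and 2054 in the iPGCs and 1613 and 1661 in the somatic cells of V6.5, and 2454 and 2677 in the iPGCs and 1456 and 1782 in the somatic cells of Oct4-Gfp. For Aurkb, the Aurora kinase of the chromosomal passenger complex, the differences were 0.42 ± 0.15 (SE, adjusted p = 0.0471) and 0.67 ± 0.15 (SE, adjusted p = 0.00697), with Oct4-Gfp iPGCs at the ESC level. The V6.5 call was lost in 12 of 21 alternative settings. In ESCs the Bub1 signals were 3321 and 2895, in iPGCs 3931 and 3524 (V6.5) with 4435 and 5076 (Oct4-Gfp), and in somatic cells 2460.1 and 2539.8 (V6.5) with 2634 and 3449.7 (Oct4-Gfp). For the checkpoint kinase Bub1 the differences were 0.57 ± 0.17 (SE, adjusted p = 0.0256) and 0.65 ± 0.17 (SE, adjusted p = 0.0146), and all 4 iPGC arrays exceeded the others. The mean of the 2 tested Bub1 probe sets gave 0.18 and 0.13 in place of 0.57 and 0.65, and neither passed. The other Bub1 probe set thus had a negative difference in both lines. The V6.5 call of Bub1 was also lost with no filter, without V6.5 iPGC replicate 1 and without either V6.5 somatic array, and the Oct4-Gfp call without iPGC replicate 2 or somatic replicate 1. The signals of Cdc20 were 5523 and 5833 in ESCs, against 4088 and 4475 in V6.5 and 4645 and 5535 in Oct4-Gfp iPGCs and 3148 and 3370.3 in V6.5 and 3355 and 4021 in Oct4-Gfp somatic cells. For Cdc20, which activates the anaphase-promoting complex and whose promoter is shown above, V6.5 somatic cells minus ESCs was -0.80 ± 0.15 (SE, adjusted p = 0.00267) and Oct4-Gfp iPGCs minus somatic cells 0.46 ± 0.15 (SE, adjusted p = 0.0368), a call lost in 9 of 20 alternative settings.

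Mki67, the proliferation antigen Ki-67, was the only G2/M gene called lower in iPGCs than in somatic cells, and this over both lines together (-0.27 ± 0.09, SE, adjusted p = 0.0292). Mki67 had signals of 5582 and 5746 in ESCs, 5642 and 5295 in the iPGCs and 6642 and 6438 in the somatic cells of V6.5, and 6233 and 5866 in the iPGCs and 6964 and 7809.7 in the somatic cells of Oct4-Gfp. Both Oct4-Gfp somatic arrays were the highest and the ESC arrays were among the lowest. The differences within V6.5 (-0.26 ± 0.13) and within Oct4-Gfp (-0.29 ± 0.13) did not pass, and with median centring the difference over both lines was -0.09 and did not pass. The call over both lines was lost in 8 of 20 alternative settings, among them no filter, and without any one of 5 arrays of the comparison (replicate 2 of each of the 4 groups, and V6.5 somatic replicate 1). Of the remaining G2/M genes, Ccnb2 was called higher in Oct4-Gfp iPGCs than in somatic cells, and Ccna2, Ccnb2 and Cdc25c over both lines together. Cdk1, Cdc25b, Top2a and Bub1b were called in neither line nor over both.

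Among 27 other genes of mitosis and the spindle checkpoint, none was called lower in iPGCs than in somatic cells in either line. V6.5 had 12 higher beside 22.2% of all probe sets and Oct4-Gfp 10 beside 19.4%. V6.5 somatic cells against ESCs had 16 lower and 0 higher beside 27.2% and 30.1%, and V6.5 iPGCs against ESCs 1 higher and 3 lower beside 15.6% and 11.7%. The share called in either direction was near the 45.5% of all probe sets in V6.5 and near the 57.2% in somatic cells against ESCs. It was below the 47.0% in Oct4-Gfp and below the 27.2% in V6.5 iPGCs against ESCs. The median log2 differences of the list were 0.28 in V6.5, 0.31 in Oct4-Gfp, -0.51 in V6.5 somatic cells against ESCs and -0.12 in V6.5 iPGCs against ESCs. Nek2, a centrosomal kinase, had signals of 1475 and 1305 in ESCs, 2093 and 1979 in V6.5 iPGCs and 645 and 785 in V6.5 somatic cells, with iPGCs minus somatic cells at 1.50 ± 0.19 (SE, adjusted p = 0.000504) in V6.5 and 1.46 ± 0.19 (SE, adjusted p = 0.000595) in Oct4-Gfp. Espl1 (separase) differed by 1.06 ± 0.15 (SE, adjusted p = 0.000826) in V6.5, and Ube2c, which works with the anaphase-promoting complex, by -1.47 ± 0.13 (SE, adjusted p = 4.62e-05) between V6.5 somatic cells and ESCs.

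Of 12 tested genes of the p53 pathway, which connects damage and stress to arrest, 1 was higher and 6 were lower in V6.5 iPGCs than in ESCs, beside 15.6% and 11.7% of all probe sets. Between iPGCs and somatic cells, 3 were higher and 3 lower in V6.5, and 4 and 2 in Oct4-Gfp, near the 45.5% and 47.0% of all probe sets called in either direction. V6.5 somatic cells against ESCs had 1 higher and 5 lower, beside 57.2% in either direction. Gadd45a is a stress response gene. In ESCs the Gadd45a signals were 1288 and 1166, in iPGCs 1781 and 1848 (V6.5) with 2418 and 2858 (Oct4-Gfp), and in somatic cells 235 and 286 (V6.5) with 206 and 293 (Oct4-Gfp). Its difference between iPGCs and somatic cells was 2.74 ± 0.19 (SE, adjusted p = 2.52e-05) in V6.5 and 3.34 ± 0.19 (SE, adjusted p = 1.15e-05) in Oct4-Gfp. Phlda3, a p53 target, was lower in V6.5 iPGCs than in ESCs (a difference of -1.38 ± 0.20, SE, adjusted p = 0.00298), and iPGCs minus somatic cells was -1.36 ± 0.20 (SE, adjusted p = 0.000861) in V6.5 and -1.31 ± 0.20 (SE, adjusted p = 0.00104) in Oct4-Gfp. Bbc3 (Puma), a gene of apoptosis, was lower than in ESCs, with differences of -1.31 ± 0.41 (SE, adjusted p = 0.0468) in V6.5 iPGCs and -1.79 ± 0.41 (SE, adjusted p = 0.00621) in V6.5 somatic cells.

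The 2 lines were also set against each other. For the difference between lines in iPGCs minus somatic cells, limma called none of the 42 genes, beside 0.0152% of all probe sets called, and none had an unadjusted p below 0.05, beside 10.5%. Between Oct4-Gfp and V6.5 iPGCs none was called beside 0% of all probe sets, and 4 had an unadjusted p below 0.05, beside 21.0% of all probe sets at that level. These were Ccnd2 (-1.24 ± 0.50), Cdkn1a (-0.66 ± 0.27), Chek1 (0.42 ± 0.14) and Plk1 (-0.72 ± 0.19), of which Plk1 alone was called with the trended variance of limma. That setting called 932 of all 26368 probe sets between the iPGCs of the lines. Between the somatic cells of the lines none was called beside 0.0834% of all probe sets, and 2 had an unadjusted p below 0.05 beside 12.5%, Cdk6 (0.70 ± 0.18) and Rb1 (0.52 ± 0.23). With 2 arrays a group, a gene not called may still differ.

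The probe sets of 1 gene were compared by their calls alone. Probe sets that differed in sign without both being called, as for Ccnd1 and Cdk6 above, were not counted. Of the 42 tested genes 28 had at least 2 tested probe sets, and none of the 28 had probe sets called in opposite directions in any of the 8 comparisons. Over the 90 tested probe sets, 27 were called higher and 14 lower in V6.5 iPGCs against somatic cells, 28 and 16 in Oct4-Gfp, 4 and 18 in V6.5 iPGCs against ESCs, and 13 and 48 in V6.5 somatic cells against ESCs. Probe sets of 1 gene share its RNA and are not replicates.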

How the data were processed

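The values were signal intensities of Affymetrix arrays. Per the labels, cells were dispersed with trypsin and sorted, and RNA was amplified with the NuGEN Ovation Pico WTA kit. The submitters' processing notes name MAS5, with no version, while the study's methods name D-Chip, and the deposited intensity of each array had the same trimmed mean of 500.002 (2% trimmed at each end), so that differences are relative to the whole array. Symbols came from the platform annotation, in which 34958 probe sets had 1 symbol, 932 several and 9211 none.

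Control probe sets (64) were left out. A probe set was tested where its signal exceeded the median of the array on at least 2 arrays, which left 26368 of 45101. Intensities were taken as log2(signal + 14.8), the offset being the 25th percentile of the table, and fitted with limma 3.58.1 in R 4.3.3 in 1 model of the 5 groups (5 residual and 2.92 prior degrees of freedom), with Benjamini-Hochberg adjustment over all probe sets tested. On simulated data for V6.5 iPGCs against somatic cells, with 200 of 26368 probe sets changed, 0% of log2 changes of 0.5, 14.5% of changes of 1 and 83.5% of changes of 2 were called. In the data 45.5% of probe sets were called in this comparison, which makes the adjustment less strict than in the simulation. The simulated shares are therefore not detection rates for the data, where some differences below 0.5 were also called. The genes, phase groups and pathway lists were chosen with earlier results of these data known. Genes named with values were the D and E cyclins, the 4 Cdkn inhibitors, Myc and Mycn, the called genes that changed most (up to 4 higher and 4 lower per phase group and comparison), any gene called against most of its phase group or between lines, and up to 3 called genes of each pathway list. The number of arrays limits the precision. Promoters were from RefSeq, and plots were drawn in Python 3.11.15 with matplotlib 3.10.9. Alternatives covered the offset, filter, normalization, variance model, probe set per gene, replicate block, threshold, samples in the fit and each array left out.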

Additional observations from a re-analysis of the deposited data

How the results depend on the processing

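In all, 12 settings were tried beside the main one, and each of the 10 arrays was left out in turn. The number of genes called changed by more than 1.5 times in these cases. At a threshold of a 3-fold change and an unadjusted p under 0.01, the count was 0 in V6.5 iPGCs against ESCs, 4 in V6.5 somatic cells against ESCs (2 higher, 2 lower), and 3 in each of V6.5 iPGCs against somatic cells, Oct4-Gfp iPGCs against somatic cells and both lines together (1 higher, 2 lower). Against ESCs, V6.5 iPGCs had 15 calls with the trended variance (2 higher, 13 lower), and the iPGCs of both lines had 16 (5 higher, 11 lower), in place of 9. Over all 26368 probe sets the calls rose too, to 8604 and 11032 in place of 7180. Oct4-Gfp iPGCs against V6.5 iPGCs had 1 call with the trended variance (Plk1, lower), beside 932 of all 26368 probe sets. Median centring gave 34 calls in Oct4-Gfp iPGCs against somatic cells, while calls over all probe sets went from 12403 to 13333. With 1 array left out, such a change was seen in V6.5 iPGCs against ESCs without either ESC array. It was also seen in V6.5 somatic cells against ESCs without ESC replicate 2, and in V6.5 iPGCs against somatic cells without V6.5 somatic replicate 1. In each of these cases fewer of all probe sets were called too. Over all arrays left out in turn, the counts ran from 3 to 8 in V6.5 iPGCs against ESCs and 18 to 29 in V6.5 somatic cells against ESCs. They ran from 11 to 19 in V6.5 iPGCs against somatic cells, 15 to 19 in Oct4-Gfp and 22 to 27 over both lines.

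With the replicate number as a block (replicate block), 7, 26, 17, 17 and 26 genes were called in these 5 comparisons. Correlations of replicate 1 minus replicate 2 between groups ran from -0.29 to 0.26, and 2 of 10 were over 0.1. These 2 were 0.26 between V6.5 ESCs and iPGCs and 0.13 between Oct4-Gfp iPGCs and somatic cells. With no known pairs to set them against, the correlations cannot tell whether the replicate numbers pair the samples.

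Of the called values of the named genes, 1705 kept their direction and call under the alternatives, 278 kept their direction but lost the call, and none turned. Of 1062 values that were not called, 30 had the other sign under an alternative, none of them called. Over the alternatives the G1 median log2 difference ran from -0.54 to -0.11 in V6.5 iPGCs against ESCs, from -0.10 to 0.15 in V6.5 somatic cells against ESCs, from -0.27 to -0.15 in V6.5 iPGCs against somatic cells, from -0.29 to 0.01 in Oct4-Gfp iPGCs against somatic cells and from -0.38 to -0.18 in both lines together. The S phase median log2 difference ran from -0.25 to 0.02 in V6.5 iPGCs against ESCs, from -0.56 to -0.14 in V6.5 somatic cells against ESCs, from 0.20 to 0.34 in V6.5 iPGCs against somatic cells, from 0.22 to 0.54 in Oct4-Gfp iPGCs against somatic cells and from 0.20 to 0.45 in both lines together. The G2/M median log2 difference ran from -0.32 to -0.13 in V6.5 iPGCs against ESCs, from -0.76 to -0.44 in V6.5 somatic cells against ESCs, from 0.29 to 0.46 in V6.5 iPGCs against somatic cells, from 0.31 to 0.69 in Oct4-Gfp iPGCs against somatic cells and from 0.26 to 0.54 in both lines together. The median-centred values of somatic cells against ESCs and of Oct4-Gfp iPGCs against somatic cells account for the sign changes of the G1 medians, beside -0.05 with the mean of a gene's probe sets in the former, and quantile normalization for that of the S phase median. The cause of these shifts was not tested. Signals limit the G1 group most, since its tested genes reached down to 62.3, against 179 in G2/M and 1712 in S phase genes.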
